A study of Mus musculus with 9 samples.

Results

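The cells described here are control thyrocytes sorted by their leading topic. They are the cells that the authors labelled Th1, a thyrocyte label, in the 3 control pools of a mouse thyroid single-cell RNA-seq study, and each was assigned to whichever of the 7 deposited topic weights was largest in it. All 425 Th1 cells of these pools carried weights. Topic1 led 366 cells, topic3 led 23 and topic4 led 21, which makes 410 cells of the 10186 in the series. Topic5 led 15 cells, below the minimum of 20 cells set for a topic, and topics 2, 6 and 7 led none. Topic4 lay just inside that minimum with 21 cells and topic5 just outside it with 15.

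The study asked what blocking Notch signalling does to the adult thyroid. Each sample was a pool of thyroids from 6 male C57BL/6 mice, dissociated with Liberase, and its RNA was captured with the version 2 droplet chemistry of 10x Genomics, which primes on poly(A). Mice were 10 to 12 weeks old per the series text and 10 to 14 weeks per the sample text. All groups received a single intraperitoneal injection and were labelled 7 days: the RW controls got anti-ragweed antibody at 40 mg/kg, the aJ1aJ2 mice got anti-Jag1 and anti-Jag2 at 20 mg/kg each, and the aN1aN2 mice got anti-Notch1 at 5 mg/kg and anti-Notch2 at 10 mg/kg. There were 3 pools per group. RW 1 and RW 2 carry their numbers in the titles, and the RW pool without a number is called RW 3. The RW animals are intact mice given an irrelevant antibody, so no untreated mice enter here. Each pool is 1 replicate, and the spread given below is the spread between pools.

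Thyrocytes line the thyroid follicle, make thyroglobulin (Tg), iodinate it at the expense of hydrogen peroxide, and later take it back up and digest it in lysosomes to release thyroid hormone. A topic model describes each cell as a mixture of expression programs, and the weights of a cell add up to 1. A cell led by a topic can thus carry large weights of others. Topic models are fitted to gene expression, so every difference in genes, depth or mitochondrial share between the topic sets below is a description of how the sets differ and carries no test.

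Topic1 carried weight in all 3 sets. In topic1-led cells the median topic1 weight was 0.577, with 0.207 for topic3 and 0.104 for topic4. In topic3-led cells topic3 had a median weight of 0.449, and topic1 still had 0.376. In topic4-led cells topic4 had 0.416, topic1 0.243 and topic3 0.214. A leading weight of at least 0.5 was found in 272 topic1-led cells, 2 topic3-led cells and 3 topic4-led cells. The runner-up was topic1 in 18 of the 23 topic3-led cells and in 10 of the 21 topic4-led cells. The lead was under 0.05 in 15 topic1-led, 15 topic3-led and 7 topic4-led cells, 37 of 410 in all. The narrowest topic3 lead was 0.330 against 0.329 for topic1, and the narrowest topic1 lead was 0.455 against 0.451 for topic3, so that the cells on either side of the boundary had nearly equal weights.

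The Th1 label was checked against 13 thyrocyte markers. Levels are given as CPM, the UMIs (unique molecular identifiers, counted transcript molecules) of a gene per 1000000 UMIs of all genes. The summed level of the markers was 96572 ± 2436 CPM in topic1-led cells (SD, n = 3 pools), 198611 ± 333 in topic3-led cells and 96048 ± 9045 in topic4-led cells, and no marker was at 0 in any of the 3 sets. In all 3 sets most of this sum was Tg. No cell barcode was shared between the Th1 cells of the RW pools, 4 were shared among all cells of these pools and 15 among the cells of all 9 pools. No doublet caller was run.

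Depth fell in different ranges in the 3 sets. Topic1-led cells had median totals of 18315 UMIs in RW 1, 14088 in RW 2 and 22595 in RW 3. Topic3-led cells had medians of 12335, 7716 and 22158.5 in the same pools, so they were shallower in RW 1 and RW 2 and about as deep in RW 3. Topic4-led cells had medians of 7352, 5474 and 5422, below both other sets in every pool. The ranges of single cells overlapped: topic1-led cells ran from 1975 to 131347 UMIs, topic3-led cells from 4248 to 34961 and topic4-led cells from 2292 to 18606. After cells were thinned to 2000 UMIs, which left out 1 topic1-led cell of 1975 UMIs, the median number of genes detected was 1068 in 365 topic1-led, 960 in 23 topic3-led and 975 in 21 topic4-led cells, against 4644.5, 3310 and 2212 before thinning.

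The mitochondrial share of UMIs was highest in topic4-led cells. Its median was 9.13%, 8.55% and 8.23% in the topic1-led cells of RW 1, 2 and 3, and 12.8%, 12.8% and 9.16% in the topic3-led cells. In topic4-led cells the medians were 22.9%, 15.6% and 21.9%, and 19 of the 21 cells lay above the topic1 median of their own pool, as did 18 of the 23 topic3-led cells. The topic4-led set was not uniform, since its cells ranged from 2.39% to 24.6%. The deposited table holds no cell above 25%, and 10 of the 21 topic4-led cells lay at 20% or more, close to that ceiling, against 9 of the 366 topic1-led cells.

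**Figure D1:**
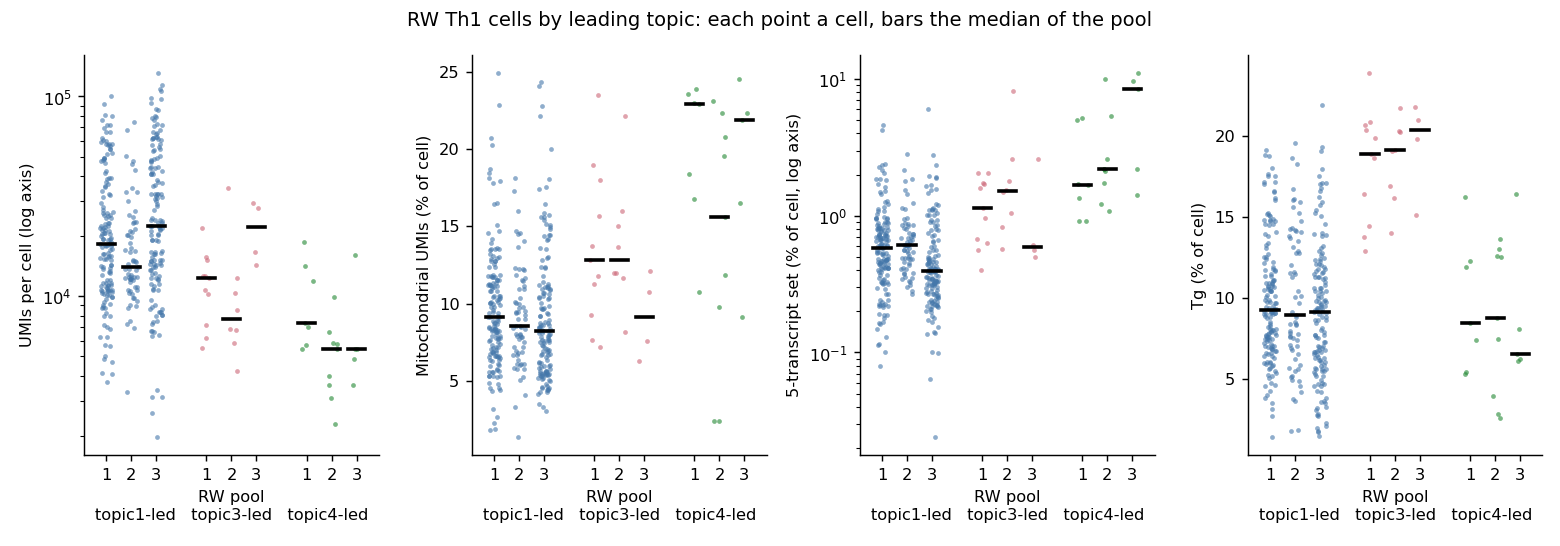
Each point is a Th1 cell of an RW pool, grouped on the x axis by leading topic and pool (1, 2, 3), and black bars are pool medians. The y axes give UMIs per cell (log axis), mitochondrial UMIs, the summed UMIs of Gm42418, AY036118, Gm26917, Lars2 and Mir6236 (the 5-transcript set, log axis) and Tg, the last 3 as percent of the cell's UMIs: topic4-led cells were the shallowest and highest in mitochondrial UMIs, and topic3-led cells the highest in Tg.

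For the gene comparisons, UMIs were summed per pool and topic, giving 9 sums, and scaled to CPM by the total of each sum. The topic1 sums held 3957055, 1253740 and 4879658 UMIs in RW 1, 2 and 3. The topic3 sums held 130486, 90060 and 87960, and the topic4 sums 70290, 46576 and 35477, so the smaller sums set the precision. The log2 difference within each pool was taken with a prior of 1.71 CPM added to both sums. A gene was counted as different where it differed by at least 1 log2 unit in the same direction in all 3 pools. Genes entered only where at least 5 UMIs would be expected in the smaller sum of every pool at the mean level of both sums, which gave 2217 genes for topic3 and 872 for topic4.

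Topic3-led cells stood apart by Tg itself. Tg stood at 91649, 90548 and 87464 CPM in the topic1 sums of RW 1, 2 and 3, and 192174, 191117 and 189166 in the topic3 sums. The 2 sets of pools did not overlap, and the topic3 level was 2.12 times the topic1 level, a log2 difference of -1.09 ± 0.02 (topic1 minus topic3, SD, n = 3 pools). All 23 topic3-led cells lay above the median Tg share of the topic1-led cells in their pool. Topic4 sums held 97140, 94620 and 81151 CPM, at the topic1 level (-0.01 ± 0.11). Across the 180, 84 and 161 Th1 cells of RW 1, 2 and 3, the topic3 weight ranked the cells almost as the Tg share did (Spearman's rho 0.97, 0.98 and 0.96, a description over cells of the same libraries). The highest Tg shares of topic1-led cells reached 21.9% and the lowest of topic3-led cells 12.9%, so the sets overlapped cell by cell.

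The other thyroid genes did not share the 2-fold gap of Tg. Of 21 thyroid function genes, 15 passed the expression filter against topic3, and Tg was the only member past the rule, beside 0.226% of all 2217 genes lower in topic1 by it. In every pool 6 of the 15 were lower in topic1, Tg among them, and 2 were higher, where 9.79% of all 2217 genes were lower and 41.0% higher in every pool. Foxe1, a thyroid transcription factor, was lower by a small and even margin (-0.43 ± 0.05), and Cdh16, a cadherin of thyrocytes, differed by -0.71 ± 0.20. The median difference of the list was -0.07, beside 0.28 over all 2217 genes, and ran from -0.39 to 0.01 over 5 scalings. Iyd, which recovers iodide, differed by -0.08 ± 0.46, the iodide transporter Slc26a7 by -0.38 ± 0.32 and Dio1, which converts T4 to T3, by 0.06 ± 0.67, with spreads close to the size of the difference or larger. The ER chaperones that fold secretory proteins spread widely across topic3 pools: none of 18 tested members passed the rule, which is near the share of all genes (0.451% higher and 0.226% lower). Hspa5 (BiP) stood at 2187, 3033 and 2722 CPM in topic1 sums and 2268, 3964 and 4502 in topic3 sums, higher in topic3 within every pool (-0.39 ± 0.34) although the ranges of the pools overlapped.

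In the topic1 against topic3 comparison 10 genes were higher in topic1 (0.451% of the 2217 tested) and 5 were lower (0.226%). Since topics are fitted to gene expression, nothing is read from those shares. The 10 higher genes were Grp, Cenpb, Timm17a, Acat1, Gsta3, S100a6, Rps3a1, Rps13, Vdac3 and Rpl39. The 5 lower genes were Tg, Gm42418, Lars2, Mir6236 and Paxbp1. With topic1-led cells limited to those no deeper than the deepest topic3-led cell of their pool, 6 of the 10 higher genes still passed the rule and 0 of the 5 lower genes did, with Tg at -1.01. This cap removed the deepest topic1-led cells and did not equalise depth: the capped cells had medians of 12103, 13216 and 14400 UMIs in RW 1, 2 and 3, deeper than the topic3-led cells in RW 2 and shallower in RW 3.

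Grp, the bombesin-like neuropeptide, was higher in topic1 than in topic3. It stood at 1004, 1194 and 1198 CPM in the topic1 sums and at 53.6, 22.2 and 45.5 in the topic3 sums, which rest on 7, 2 and 4 UMIs, so Grp could enter the comparison only through its topic1 level. The log2 difference was 4.83 ± 0.74. Its UMIs were concentrated: 5 of the 366 topic1-led cells held 45.2% of the topic1 total of 11312, and the highest cell held 12.5%. Topic4 sums held 953, 472 and 0 CPM, so Grp did not separate topic1 from topic4 in RW 1. With topic1-led cells capped in depth as above the topic3 difference was 3.78.

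The 9 other genes higher in topic1 than in topic3 were of varied function. Rps13, a small-subunit ribosomal protein, stood at 1046, 1034 and 1219 CPM in topic1 sums and 452, 455 and 477 in topic3 sums (1.25 ± 0.09). Timm17a, part of the inner-membrane protein import channel, differed by 1.60 ± 0.36, Acat1, a mitochondrial thiolase, by 1.42 ± 0.39, and Vdac3, an outer-membrane channel, by 1.21 ± 0.09. Cenpb, a centromere-binding protein, stood at 116, 116 and 131 CPM in topic1 and at 38.3, 11.1 and 56.8 in topic3, which are 5, 1 and 5 UMIs. The calcium-binding protein S100a6 differed by 1.30 ± 0.23 and Gsta3, a glutathione transferase, by 1.35 ± 0.38. The topic3 values of the 6 genes outside the ribosomal proteins rest on 1 to 12 UMIs per sum, and all but Vdac3 could enter the comparison only through a higher topic1 level. The pools of none of these genes overlapped between the 2 sets.

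The cytosolic ribosomal proteins as a list separated topic1 from both other sets. They summed to 114717, 115373 and 123802 CPM in topic1, 66206, 66989 and 72681 in topic3 and 70736, 75704 and 74245 in topic4. The topic1 sums were 1.72 times the topic3 sums and 1.60 times the topic4 sums, with no overlap of pools. All 77 tested members were higher in topic1 than in topic3 in every pool, as were 41.0% of all genes tested, but 2 reached the rule (Rpl39 and Rps13), beside 0.451% of all genes, and the median was 0.79 beside 0.28 for all genes. Against topic4, 71 of 77 were higher in every pool, as were 58.3% of all 872 genes. The rule was reached by 6 (Rpl10, Rpl15, Rpl34, Rplp0, Rps15a and Rps4x), beside 4.13% of all genes, and the median was 0.73 beside 0.55. Rps3a1 also passed against topic3 but its symbol lies outside the pattern that defined the list. In topic1-led cells capped at the depth of the deepest topic3-led or topic4-led cell the ratio to topic3 was 1.64 and that to topic4 was 1.36.

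**Figure D2:**
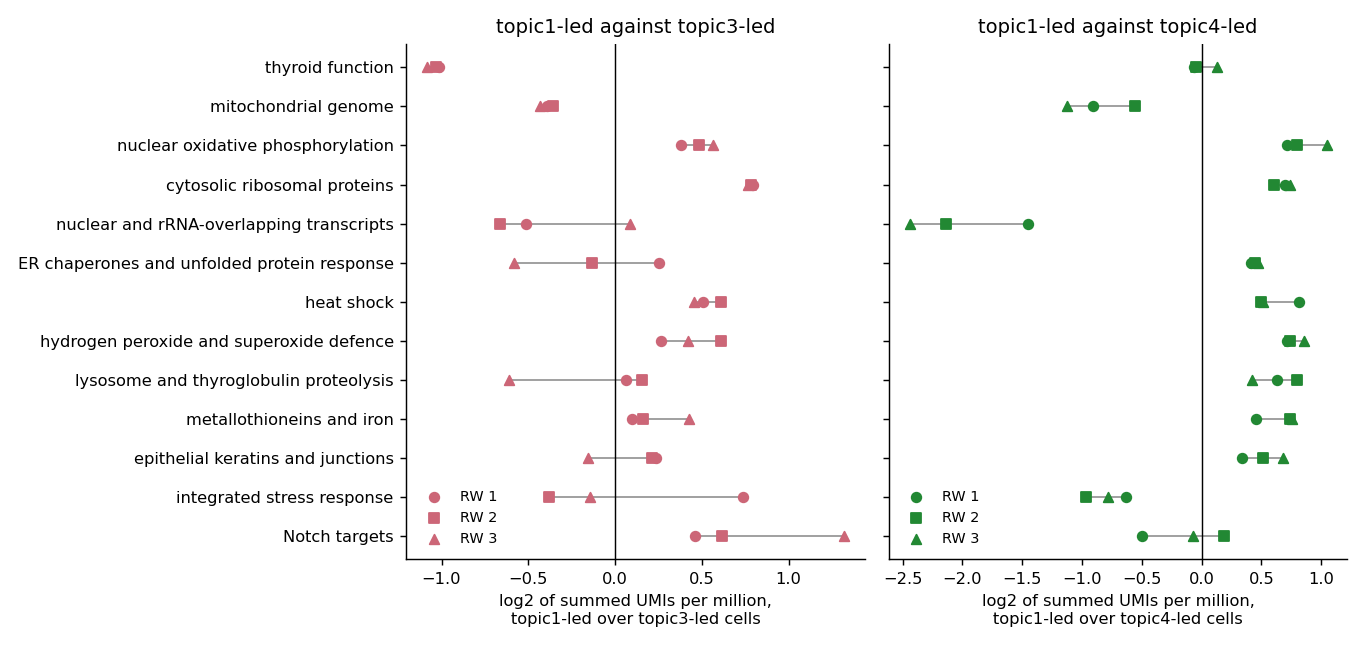
Each symbol is the log2 ratio of a gene list's summed CPM between topic1-led and topic3-led (left) or topic4-led (right) cells within an RW pool, for 13 of the 20 lists, and lines join the lowest and highest pool. The thyroid function sum, which is mostly Tg, lies near -1 against topic3 and near 0 against topic4, while the median of its 15 members tested against topic3 was -0.07, and mitochondrial-genome and nuclear oxidative phosphorylation lists lie on opposite sides of 0 in both panels.

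Against topic4, 36 genes were higher in topic1 (4.13% of the 872 tested) and 13 were lower (1.49%). All 36 higher genes were protein-coding, as were 851 of all 872 tested, so this is near the share of all genes. Of the 13 lower genes 3 were encoded in the mitochondrion, 6 were non-coding nuclear genes and 4 were protein-coding nuclear genes (Lars2, Igfn1, Ddx17 and Srsf6). Among all 872 tested genes 14 were encoded in the mitochondrion and 18 were non-coding nuclear genes. When topic1-led cells were capped at the depth of the deepest topic4-led cell of their pool, 12 of the 36 (2410015M20Rik, Atp5g1, Psmb5, Ndufc1, Ndufa5, S100a1, Ndufb8, Selenof, Cox7c, Ndufab1, Crip1 and Vdac2) and 5 of the 13 (Lars2, Gm42418, Gm26917, Igfn1 and Ddx17) still passed. The median over the 872 genes was 0.55 on this scale, so a typical gene was itself higher in CPM in topic1 than in topic4.

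Of the 13 genes lower in topic1, Gm42418, Lars2, Gm26917, Mir6236 and AY036118 had the largest differences. Gm42418 stood at 4528, 5091 and 3778 CPM in topic1 sums, at 9143, 13413 and 11244 in topic3 sums and at 20131, 33537 and 42732 in topic4 sums. Its topic4 level was 7.20 times the topic1 level (-2.79 ± 0.68), and the 3 sets of sums did not overlap. Single cells weighed unequally on these sums. The summed share of the 5 transcripts ran from 0.498% to 2.58% (median 0.587%) in the 4 topic3-led cells of RW 3. In the 9 topic4-led cells of RW 2 it ran from 1.08% to 10.0% (median 2.19%). It lay above the topic1 median of the pool in all 21 topic4-led and in 20 of 23 topic3-led cells. Lars2, the mitochondrial leucyl-tRNA synthetase gene, stood at 260, 265 and 188, then 759, 766 and 421, then 1949, 1503 and 1494 (-2.79 ± 0.26 against topic4). Mir6236 stood at 74.6, 150 and 174 CPM in topic1 and at 285, 644 and 2058 in topic4 (-2.52 ± 0.90). Gm26917 (-2.67 ± 0.72) and AY036118 (-2.44 ± 0.53) were lower in topic1 as well. In GRCm38 Gm42418 lies at chr17:39846958-39848788 on the plus strand, AY036118 overlaps it on the minus strand at chr17:39847113-39848035, and Gm26917 is beside them at chr17:39843013-39846341. As background, Gm42418 and AY036118 are annotated over sequence of a ribosomal RNA repeat. Lars2 was counted with them in the list of nuclear and rRNA-overlapping transcripts, and the source of the Lars2 and Mir6236 reads was not tested. The strand setting of the counting is not given in the sources used here, so reads of the overlapping pair cannot be told apart.

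The 3′ capture primes on stretches of A, and 3 non-coding transcripts high in topic4 are therefore shown at the longest run of A in their longest annotated transcript. The sequences are from the GENCODE transcripts of GRCm38, 5′ to 3′ on the transcript's strand, with the longest A run in capitals. Each is shown as the run with up to 30 bases on each side: Malat1 at chr19:5795958-5796029 (minus strand), mt-Rnr2 at chrM:1458-1524 and Gm42418 at chr17:39847137-39847202 (plus strand).
Malat1: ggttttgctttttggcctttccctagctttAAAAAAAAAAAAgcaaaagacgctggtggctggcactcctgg
mt-Rnr2: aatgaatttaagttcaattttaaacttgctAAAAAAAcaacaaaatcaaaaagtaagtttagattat
Gm42418: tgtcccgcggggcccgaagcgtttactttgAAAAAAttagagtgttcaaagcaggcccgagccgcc
The runs are 12, 7 and 6 bases long. Such runs are common: of the 871 annotated genes compared with topic4, 57.5% hold a run of at least 6 A in their longest transcript, 39.8% one of at least 7 and 11.7% one of at least 12. The runs are a description of the sequences, and where priming took place was not tested.

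Malat1, a nuclear long non-coding RNA, was also higher in the topic4 sums. It stood at 14256, 16355 and 13634 CPM in topic1 and at 30758, 61426 and 52936 in topic4, with no overlap (-1.66 ± 0.48). The topic4-led cells were uneven, since their Malat1 share ran from 0% to 23.0% in RW 2 and from 0.166% to 10.9% in RW 3. It lay above the topic1 median of the pool in 17 of the 21 cells, so a few cells weighed heavily on these sums. Topic3 sums held 17343, 20042 and 4764, on both sides of topic1. Neat1, another nuclear RNA, stood at 481, 388 and 326 CPM in topic1 and 797, 1567 and 1043 in topic4 (-1.47 ± 0.66), without overlap but short of the rule in RW 1. The splicing-related genes Ddx17 (-1.37 ± 0.29) and Srsf6 (-1.30 ± 0.24), the non-coding Sfta3-ps (-1.33 ± 0.30) and Igfn1 (-1.85 ± 0.53) were lower in topic1 and passed the rule.

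Transcripts of the mitochondrial genome and nuclear genes for the same respiratory chain differed in opposite directions. The 13 mitochondrial messages summed to 63759, 63405 and 60026 CPM in topic1, 83680, 81102 and 81173 in topic3 and 119761, 93052 and 131240 in topic4, and none of these sets of pools overlapped. Against topic4, 11 of the 12 tested members were lower in topic1 in every pool, as were 10.9% of all genes tested, and mt-Co3 passed the rule (-1.12 ± 0.11), beside 1.49% of all genes. The mitochondrial ribosomal RNA mt-Rnr2 stood at 20853, 19999 and 18546 in topic1 and at 60407, 47170 and 67678 in topic4 (-1.55 ± 0.31), while its topic3 values of 35253, 31779 and 15280 lay on both sides of topic1. Nuclear oxidative phosphorylation genes summed to 40170, 39917 and 43274 in topic1, 30930, 28503 and 29320 in topic3 and 24498, 22909 and 20971 in topic4, again without overlap. Of 64 tested members 59 were higher in topic1 than in topic4 in every pool, as were 58.3% of all genes tested, and none was lower in every pool. The rule was passed by 9, beside 4.13% of all genes, and the median was 0.91 beside 0.55.

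The 9 members past the rule were Atp5g1, Cox6b1, Cox7c, Ndufa5, Ndufab1, Ndufb6, Ndufb8, Ndufc1 and Ndufc2. Of these, Atp5g1, Ndufab1, Ndufb6 and Ndufc1 had under 5 UMIs in at least 1 topic4 sum. They could enter only through their topic1 level, so nothing is read from the count of 9. Cox7c, a subunit of cytochrome c oxidase, stood at 1212, 1205 and 1280 CPM in topic1, 751, 666 and 796 in topic3 and 498, 494 and 479 in topic4 (1.33 ± 0.08 against topic4). Ndufa5, of complex I, stood at 387, 388 and 399 in topic1 and at 128, 107 and 169 in topic4 (1.55 ± 0.31). Against topic3, 66 of 75 tested members were higher in topic1 in every pool, as were 41.0% of all genes tested. None of the 75 reached the rule, near the 0.451% of all genes.

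**Figure D3:**
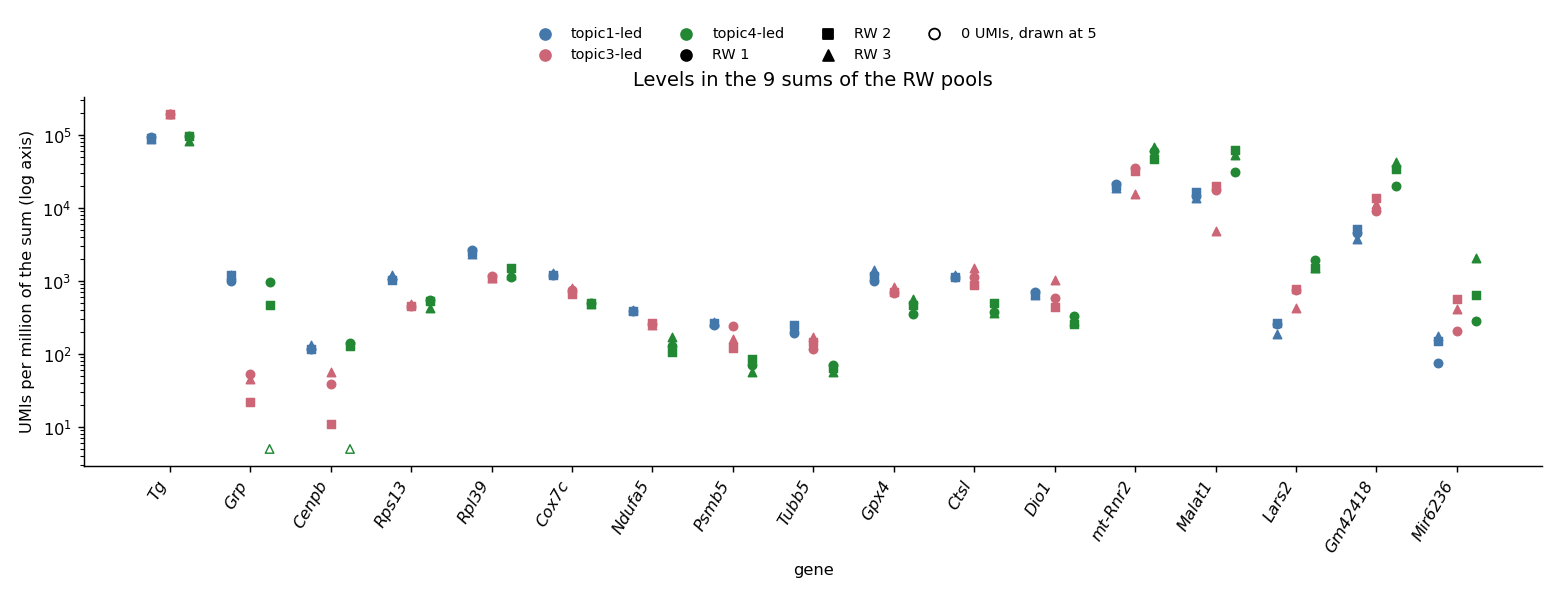
Levels of 17 genes in CPM (log axis) in the 9 sums: colour gives the leading topic, the symbol gives the RW pool, and open symbols at 5 stand for 0 UMIs. Within every pool Tg is highest in topic3, genes from Cox7c to Dio1 are lowest in topic4, and genes from mt-Rnr2 to Mir6236 are highest in topic4.

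Dio1 was the 1 thyroid function gene of 11 tested that passed the rule against topic4, where 4.13% of all genes passed in that direction. Dio1 stood at 703, 656 and 639 CPM in topic1, 582, 433 and 1035 in topic3 and 327, 258 and 282 in topic4 (1.21 ± 0.12). Iyd differed by 0.98 ± 0.60, and the 11 tested members of the list had a median of 0.13 beside 0.55, which ran from -0.31 to 0.59 over 5 scalings and so has no settled sign. Genes of peroxide handling had a median of 0.88 over 10 tested members. Gpx4, the phospholipid hydroperoxidase, was the 1 member of these 10 past the rule, beside the same 4.13%, at 983, 1164 and 1396 in topic1 and 356, 472 and 564 in topic4 (1.36 ± 0.09). Ctsl, a lysosomal protease that digests thyroglobulin, stood at 1116, 1132 and 1197 in topic1 and 370, 494 and 366 in topic4 (1.50 ± 0.27), but at 1142, 866 and 1478 in topic3, on both sides of topic1. Fth1, the heavy chain of ferritin, stood at 7078, 6105 and 7452 in topic1 and 2845, 3049 and 3664 in topic4 (1.11 ± 0.17). With capped depth, which left 10 topic1-led cells in RW 2, Dio1, Gpx4, Ctsl and Fth1 no longer passed in all 3 pools. Missing the rule in 1 pool is enough for this, so it does not show that the differences were gone.

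Other genes lower in topic4 belonged to no list. Psmb5, the chymotrypsin-like proteasome subunit, stood at 250, 262 and 269 CPM in topic1 and 71.1, 85.9 and 56.4 in topic4 (1.87 ± 0.32), where they rest on 5, 4 and 2 UMIs. Tubb5, a beta-tubulin, stood at 196, 246 and 233 against 71.1, 64.4 and 56.4 (1.79 ± 0.30), or 5, 3 and 2 UMIs. Both passed the rule under each of the scalings tried, but with capped depth Tubb5 did not. Psmb3, another proteasome subunit, stood at 225, 253 and 259 in topic1 and 99.6, 107 and 56.4 in topic4 (1.52 ± 0.56). Swi5, of DNA recombination repair, stood at 646, 650 and 660 against 270, 279 and 225 (1.34 ± 0.18), and 2410015M20Rik at 455, 470 and 466 against 185, 42.9 and 169 (2.05 ± 1.17), the last with 2 UMIs in RW 2. Psmb5, Tubb5, Psmb3 and 2410015M20Rik are among 13 of the 36 higher genes that had under 5 UMIs in at least 1 topic4 sum and could enter the comparison only through their topic1 level. The others were Atp5g1, Mgst1, Ndufab1, Ndufb6, Ndufc1, Sec61g, Ssr4, Txndc17 and Vdac2. Sec61g and Ssr4 of the ER translocation machinery and the selenoproteins Selenok and Selenof passed it under the main scaling. The highest of these, Sec61g, differed by 1.81 in the mean. The remaining genes past the rule were Txndc17, Mgst1, S100a1, Bri3, Crip1, Vdac2, Slc25a5 and Cystm1.

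Stress and Notch lists gave few testable members in sums of this size. No heat-shock member passed the rule (6 tested against topic3, 4 against topic4), but with so few members and 0.451% and 0.226% of all genes past it against topic3 and 4.13% and 1.49% against topic4, nothing is read from that count. The heat-shock medians were 0.47 and 0.65 beside 0.28 and 0.55 for all genes. The integrated stress response list summed to 325 ± 41.9 CPM in topic1, 322 ± 116 in topic3 and 567 ± 93.8 in topic4, but its members were too low for the filter against topic4. The immediate early list, which can record dissociation, summed to 1225 ± 432 in topic1, 878 ± 343 in topic3 and 752 ± 287 in topic4 with overlapping pools. Of the Notch receptors and ligands, none had enough UMIs to be tested. Among 12 Notch target genes 2 were testable against topic3, with a median of 0.63 beside 0.28. Hes1, a transcriptional repressor, stood at 159, 160 and 115 CPM in topic1 and 207, 289 and 34.1 in topic3, on both sides of topic1 (0.16 ± 1.36). The transcription factor Sox9 stood at 368, 439 and 242 CPM in topic1 and 215, 133 and 136 in topic3 (1.10 ± 0.53). Sox9 was higher in topic1 in every pool but below 1 log2 unit in some, and against topic4 it differed by -0.30 ± 0.39.

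Lists of low level had at most 2 members past the filter in a comparison, and the clock output, proliferation and cilium lists had none, so that only their sums are given. Clock output genes summed to 291 ± 67.4 CPM in topic1, 263 ± 20.1 in topic3 and 450 ± 26.0 in topic4. Glucocorticoid-response genes summed to 228 ± 20.4, 149 ± 25.9 and 390 ± 132, interferon-stimulated genes to 425 ± 72.1, 261 ± 42.3 and 230 ± 90.6, proliferation genes to 86.9 ± 11.0, 85.4 ± 12.7 and 38.0 ± 35.8, and cilium genes to 129 ± 46.3, 86.5 ± 65.7 and 114 ± 75.8. The clock and glucocorticoid sums were higher in topic4 than in topic1 in every pool, and the interferon sum was lower in topic3 and topic4 than in topic1 in every pool. The topic4 sums rest on 31, 20 and 17 UMIs for clock and 25, 13 and 19 for glucocorticoid genes. They rest on 16, 15 and 5 UMIs for interferon, 5, 2 and 0 for proliferation and 10, 8 and 1 for cilium genes. In RW 2 the glucocorticoid sums were close, at 279 CPM in topic4 and 250 in topic1. With so few UMIs nothing is read from these directions. Metallothioneins and iron genes had a median of 0.66 against topic4 and 0.15 against topic3, and epithelial keratins and junctions 0.72 and 0.15. Both medians against topic3 changed sign under other scalings (lowest -0.17 for each).

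Markers of other cell types were low but not equal in the 3 sets. Endothelial markers (8 genes) summed to 192 to 320 CPM in topic1 pools, 33.3 to 61.3 in topic3 pools and 0 to 42.9 in topic4 pools, where 5 of the 8 were at 0 in all pools. Macrophage markers (8 genes) ran from 472 to 987 in topic1, 238 to 557 in topic3 and 185 to 366 in topic4, with 5 of 8 at 0 in topic3 and 7 of 8 at 0 in topic4. C cell markers (7 genes) ran from 439 to 1236 in topic1, 34.1 to 611 in topic3 and 28.5 to 1381 in topic4, and in the topic1 sums most of it was Calca from few cells: the highest cell gave 59.6%, 87.2% and 74.8% of the Calca UMIs of the topic1 sums. Erythroid markers (5 genes) were at 96 to 261 in topic1 and 169 to 451 in topic4 and reached 15580 in the topic3 sum of RW 1, where 1 cell held 98.7% of the Hbb-bs UMIs. Within every pool the erythroid sum was higher in topic4 than in topic1 (-0.86 ± 0.10), on 24, 21 and 6 UMIs in topic4. T cell, fibroblast, mural, skeletal muscle, parathyroid, Schwann and adipocyte lists stayed at or under 113 CPM in every sum, and all 5 neutrophil markers were at 0. The part of these markers in the gene differences was not tested.

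The mitochondrial, ribosomal protein and 5-transcript differences from topic4 were smaller with topic1-led cells of capped depth and kept their direction. For topic4 the capped cells were 79, 10 and 52 cells in RW 1, 2 and 3, with medians of 11253, 8843.5 and 10868 UMIs, still deeper than the topic4-led cells. Their mitochondrial share of the sum was 11.4 ± 1.08%, between 8.48 ± 0.34% for all topic1-led cells and 17.9 ± 3.01% for topic4-led cells. The summed share of Gm42418, AY036118, Gm26917, Lars2 and Mir6236, a set assembled after the values were seen, was 0.512 ± 0.0858% in all topic1-led cells, 0.917 ± 0.226% in those capped for topic4 and 3.64 ± 1.20% in topic4-led cells. Tg in the cells capped for topic4 was 10.8 ± 0.567%, above the 9.10 ± 0.860% of topic4-led cells in every pool. Against topic3, the cap left the Tg ratio at 2.02 and the nuclear oxidative phosphorylation ratio at 1.40. The mitochondrial share was then 9.96%, 8.84% and 9.43% in topic1 and 12.2%, 11.6% and 9.84% in topic3, higher in topic3 within every pool although the ranges overlapped. The share of mitochondrial messages alone stayed without overlap (6.66 ± 0.287% and 8.20 ± 0.147%).

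Across all Th1 cells of a pool, the topic4 weight went with low depth and with the mitochondrial share. Spearman's rho between topic4 weight and UMIs was -0.58, -0.73 and -0.46 in RW 1, 2 and 3, and that with the mitochondrial share was 0.83, 0.62 and 0.86. The topic1 weight went the other way with the mitochondrial share (-0.46, -0.54 and -0.46). These are descriptions over cells that share a library.

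**Figure D4:**
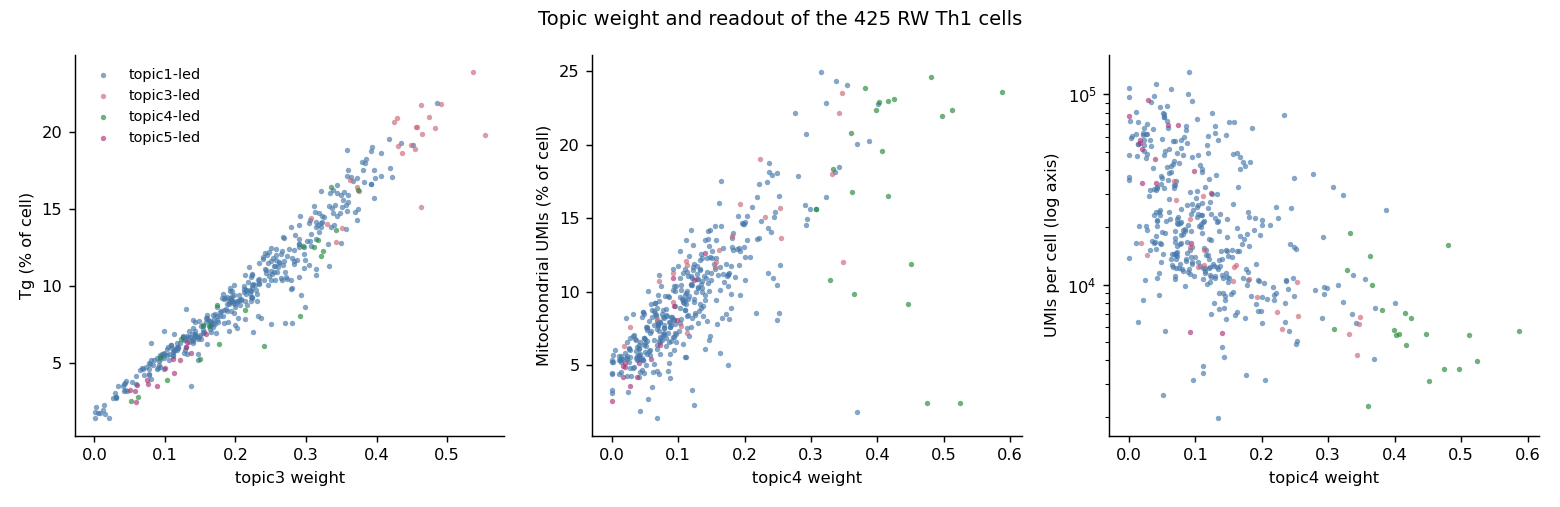
Each point is 1 of the 425 RW Th1 cells coloured by leading topic: topic3 weight against Tg as percent of the cell's UMIs (left), topic4 weight against mitochondrial UMIs in percent (middle) and against UMIs per cell on a log axis (right). Tg climbs with topic3 weight along a narrow band, and cells of high topic4 weight are mostly shallow and high in mitochondrial UMIs, apart from a few that are low in both.

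The treated pools gave a view of the same gene differences in mice that did not enter the gene rule, although their cells were sorted by the same topic weights. A like sign is therefore partly built in and is given as a description. Pools with at least 10 cells of both topics were aJ1aJ2 1 and 3 for topic3 and aJ1aJ2 3 and 4 for topic4. No aN1aN2 pool had enough topic1-led cells. Of the genes past the rule in RW pools, 10 of 10 higher and 4 of 5 lower than topic3 kept their sign in both aJ1aJ2 pools, Paxbp1 being the exception (-0.69 and 0.18). Of these genes 6 of the 10 higher than topic3, and 13 of the 36 higher than topic4, had entered only through their topic1 level. Of all 2217 genes 58.3% were higher and 12.0% lower in topic1 in both of these pools. Tg differed by -0.97 and -0.89, and Grp by 1.29 and 2.14. Against topic4, 35 of 36 higher and 13 of 13 lower genes kept their sign, where 67.1% of all 872 genes were higher and 12.5% lower in both pools. Lars2 differed by -3.02 and -2.72 and Psmb5 at 1.56 and 1.82, while Tubb5 differed by 0.46 and 0.04.

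Topic4-led cells were shallower and higher in mitochondrial share than topic1-led cells in these treated pools too. In aJ1aJ2 3 and 4 their median depth was 4634 and 3728 UMIs and their median mitochondrial share 19.2% and 20.2%. The topic1-led cells of these pools had 16157 and 10704 UMIs and 8.24% and 8.80%. Topic3-led cells had a median Tg share of 15.1%, 19.7% and 19.4% in the aN1aN2 pools, where topic2-led cells had 7.92%, 8.31% and 8.68%.

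How many Th1 cells each topic led was then compared between treatments. All Th1 cells of every pool were counted, but the topics tested were topic1, topic3 and topic4, which met the minimum of 20 cells in the RW pools. The topics were thus chosen on the control group, and topic2, which led 0 RW cells, was not tested. The shares are also counts of the same topic assignments, and treated and control cells carry weights of the same 7 topics. The topics may therefore already reflect the treatment, and the tests below are no independent evidence of a treatment effect. In RW 1, 2 and 3, topic1 led 85.6%, 77.4% and 91.3% of Th1 cells. In the aJ1aJ2 pools it led 78.9%, 60.1% and 61.9%, and in the aN1aN2 pools 1 of 158, 0 of 128 and 0 of 62 cells. The counts of 0 allow shares of up to 2.34% and 4.84% (3 cells of the total, counting error only). The RW and aN1aN2 pools did not overlap, and the mean difference was -84.5 percentage points (exact two-sided permutation test, p = 0.1, adjusted p = 0.2 over 6 comparisons). With 3 pools against 3, 0.1 is the smallest p this test can give. The aJ1aJ2 difference was -17.8 points (exact permutation test, p = 0.2, adjusted p = 0.24), and aJ1aJ2 1 lay within the RW range.

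Topic3 led 6.04 ± 3.52% of Th1 cells in RW, 9.67 ± 2.25% in aJ1aJ2 and 17.0 ± 2.19% in aN1aN2 pools (SD, n = 3 pools each). The aN1aN2 difference of 11.0 points came without overlap (exact permutation test, p = 0.1, adjusted p = 0.2), and the aJ1aJ2 pools overlapped RW (p = 0.3, adjusted p = 0.3, same exact test). Topic4 led 5.90 ± 4.19% in RW, 11.2 ± 2.96% in aJ1aJ2 with overlapping pools (p = 0.2, adjusted p = 0.24, exact permutation test) and 1.01 ± 0.528% in aN1aN2, where it led 1 cell per pool (p = 0.1, adjusted p = 0.2, exact permutation test). Without RW 2 the topic4 difference between aN1aN2 and RW was -2.49 points in place of -4.89. In aN1aN2 pools topic2 led 82.9%, 78.1% and 77.4% of Th1 cells. The aN1aN2 sample identifiers form a range of their own in the titles, so that range and the antibodies cannot be told apart. RW 3 and aJ1aJ2 1 share another range (91.3% and 78.9% topic1-led), and RW 1 and 2 share the remaining range with aJ1aJ2 3 and 4 (85.6% and 77.4% against 60.1% and 61.9%), so the topic1 share was lower after aJ1aJ2 within both ranges (differences of -12.4 and -20.4 points). With the range as a block, chosen after seeing the data, the aJ1aJ2 differences were -17.8 points for topic1 and 5.26 for topic4 (exact two-sided permutation within ranges, p = 0.167, adjusted p = 0.25 for each) and 3.63 for topic3 (same exact test, p = 0.5, adjusted p = 0.5). The smallest p that the 12 arrangements allow is 0.167.

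**Figure D5:**
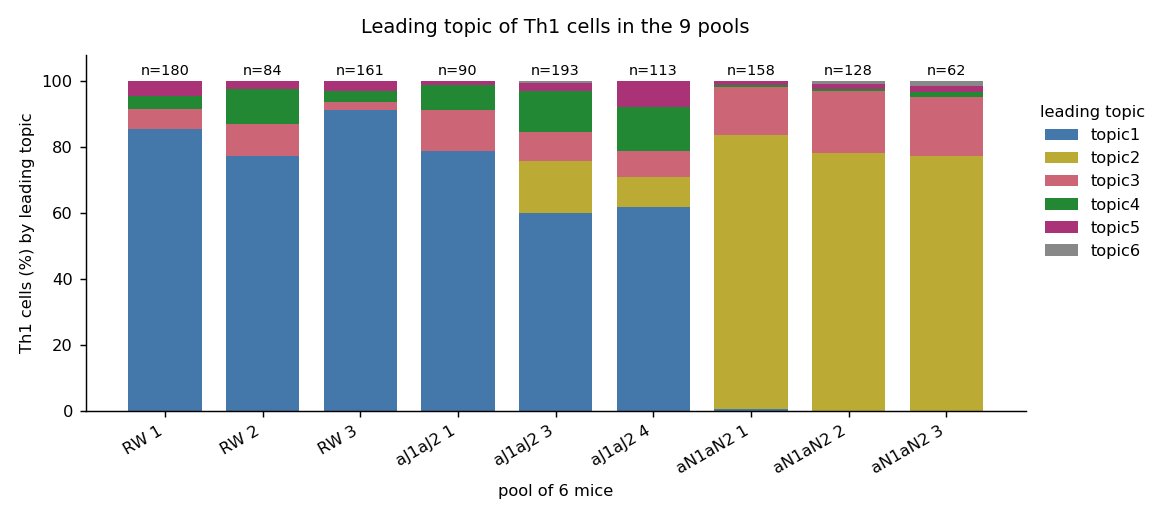
Stacked bars give the percent of Th1 cells led by each topic in the 9 pools of 6 mice, with the number of Th1 cells above each bar. Topic1 (blue) leads 77.4% to 91.3% of RW cells and at most 1 cell of an aN1aN2 pool, where topic2 leads most cells.

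The counts of genes depended on how the sums were scaled and filtered. Under plain totals topic1 had 10 higher and 5 lower genes against topic3 and 36 and 13 against topic4. With TMM factors (a trimmed mean over genes) from all genes they were 14 and 4, and 136 and 5. With TMM factors from genes at 100 or more CPM they were 1 and 11, and 2 and 34, and with mitochondrial genes and Tg left out of plain totals 1 and 6, and 8 and 13. With a filter of 10 UMIs over both sums in place of 5 expected UMIs, 259 genes were higher (2.79% of 9282) and 20 lower (0.215%) against topic3, and 702 higher (7.61% of 9229) and 93 lower (1.01%) against topic4. The median over all genes moved with the scaling, from -0.04 to 0.35 for topic3 and from 0.11 to 0.91 for topic4. Grp (higher) and Gm42418, Lars2, Mir6236 and Paxbp1 (lower) passed against topic3 under each scaling, and Psmb5 and Tubb5 (higher) and Lars2, Gm42418, Gm26917, Mir6236 and AY036118 (lower) against topic4. The Tg difference from topic3 was -1.03 with TMM over all genes, -1.41 with TMM from the higher genes, -0.97 with cells thinned to 2000 UMIs and -0.96 with each cell weighted equally. The medians of the mitochondrial genome, nuclear oxidative phosphorylation and cytosolic ribosomal protein lists kept their signs in both comparisons under every scaling in which they could be computed. With 4 to 11 cells in each topic3 or topic4 sum, single cells can carry a gene, and a gene absent from the lists is not shown to be equal.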

How the data were processed

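The authors deposited a table of raw UMI counts (whole numbers) for 52636 genes and 10186 cells, and an annotation table with each cell's pool, label and 7 topic weights. The deposited topic weights are fractions with a sum of 1 per cell. Commas inside a field displace the columns of 2619 annotation rows, so the deposited topic1 column, as it stands, was recorded as a score, and those rows were realigned before use. Per the submitters' processing notes, Cell Ranger and GRCm38 were used. The Cell Ranger version and the way labels and topics were made are not given in the sources used here. The 52403 gene identifiers with a symbol were named from a table of gene identifiers and symbols, and positions are from GENCODE on GRCm38.

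Cells were used as deposited, and each went to the topic of largest weight. UMIs were summed per pool and leading topic in Python 3.11.15 (pandas 2.3.3, numpy 2.4.6), and log2 differences were taken within pools with a prior count of 2 scaled to the sums. TMM factors came from edgeR 4.0.16 in R 4.3.3, used for scaling and not for tests. Shares were compared with exact permutation tests (scipy 1.17.1) and Benjamini-Hochberg adjustment.

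Named genes were drawn by this rule: the 12 higher and 12 lower genes per comparison with the largest difference in their least pool, up to 4 members of each list by level, and any member past the rule. Mir6236, Gm26917, Grp, Calca, mt-Rnr1, mt-Rnr2, Foxe1 and Cdh16, the genes past the rule named in passing, the A runs and the 5-transcript set were picked after their values were seen. The cells, lists and comparisons were chosen with earlier results of these data known.

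The procedure departs from its first plan in 3 ways. A minimum of 10 cells of both topics per pool would have left RW 1 for topic3 and no pool for topic4, so all 3 pools were used. Sums were simulated at the topic1 rates, with a set of genes changed by 2 log2 units in the topic3 and topic4 sums. On these, TMM over all genes shifted the unchanged genes and a filter of 10 UMIs let unchanged genes past the rule. Plain totals and a filter of 5 expected UMIs therefore became the main setting. Alternatives tried were other scalings, filters and prior counts, cells of leading weight at least 0.5, thinning to 2000 UMIs, equal weight per cell, topic1-led cells capped at the other set's greatest depth, leaving out each pool and, for shares, the range of sample identifiers as a block.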

Additional observations from a re-analysis of the deposited data

Results flagged for a closer look

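The 15 Th1 cells led by topic5, too few for the comparisons, stood apart by endothelial markers. Their 8 endothelial markers summed to 7505, 7147 and 7354 CPM in RW 1, 2 and 3, against 320, 192 and 289 in topic1-led cells of the same pools. The cells were deep, with medians of 43048, 54359.5 and 45751 UMIs, and Tg still made up a median of 4.36% of their UMIs. Erythroid markers stood at 147, 19178 and 69.3 CPM, above the endothelial sum in RW 2, where topic5 led 2 cells. Macrophage markers stood at 1677, 2070 and 494 CPM, against 594, 472 and 987 in topic1-led cells. Mural markers stood at 902, 0 and 1178 CPM and adipocyte markers at 1073, 212 and 710. No doublet caller was run, and the source of these UMIs was not tested.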

How the results depend on the processing

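The counts of genes at least 1 log2 unit apart in every pool depended strongly on the setting. Against topic3 (10 higher, 5 lower), thinning to 2000 UMIs gave 2 and 0, at least 30 UMIs 81 higher, at least 10 UMIs 259 and 20, no filter 879 and 41, and RW 1 alone (at least 10 cells of both topics) 273 and 101. TMM from genes at 100 or more CPM gave 1 and 11, plain totals without mitochondrial genes and Tg 1 higher, TMM without them 3 lower, equal weight per cell 2 lower, and capped depth 0 lower. Against topic4 (36 and 13), thinning gave 11 and 3, at least 30 UMIs 204 and 38, at least 10 UMIs 702 and 93, no filter 1590 and 127, TMM over all genes 136 and 5, TMM without mitochondrial genes and Tg 105 and 6, TMM from the higher genes 2 and 34, plain totals without mitochondrial genes and Tg 8 higher, and capped depth 20 and 5. A leading weight of at least 0.5 left 404 genes in 2 pools against topic3 (47 higher) and 57 genes against topic4 (14 and 2), from 2 and 3 cells. There Paxbp1 (0.59) and S100a6 (-0.46) against topic3 and Ddx17 (1.12), Igfn1 (2.47) and Srsf6 (0.56) against topic4 reversed. With 1 pool left out, so that 2 pools had to pass, the counts were 34 to 52 higher and 10 to 20 lower against topic3, and 64 to 88 and 20 to 22 against topic4. Other than where the construction changes the genes or cells used, the cause was not tested. A minimum of 20 cells per pool, and of 10 cells for topic4, left no pool and gave no value.

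The share comparisons kept their direction when any pool was left out. The topic1 difference ran from -23.7 to -14.3 points for aJ1aJ2 and from -88.2 to -81.3 for aN1aN2, and the topic4 difference for aN1aN2 from -6.29 to -2.49. The topic3 difference for aJ1aJ2, 3.63 points with all pools, ran from 1.85 without RW 3 to 5.37 without RW 2, and was 2.35 without aJ1aJ2 1. RW and aN1aN2 share the replicate numbers 1 and 2, which nothing ties to shared mice or days. With these numbers as a replicate block the aN1aN2 difference was -81.2 points for topic1, 8.84 for topic3 and -6.59 for topic4. With 2 pairs no pairing check was possible, and the topic differences come from no test. The depth of the topic3 and topic4 sums, 35477 to 130486 UMIs, limits what low genes can show.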
